A study of Mus musculus with 25 samples.

Results

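Il1r2, Il1rl1, Il18r1 and Il18rap are 4 receptor genes of the interleukin-1 family that lie beside Il1r1, the gene of the signalling IL-1 receptor, on mouse chromosome 1. They were taken by symbol from a table of 13641 genes, and all 4 were among the 13630 genes tested. The table comes from 25 libraries of bulk RNA from hematopoietic stem cells, which renew the blood for life and were sorted from bone marrow as Lin-Sca1+cKit+CD48-CD150+. The sorted cells came from mice engrafted with donor marrow of 4 genotypes, treated with tamoxifen 16 weeks later, and killed 2 or 4 weeks after tamoxifen began.

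By their labels, donors of the WT group carried SclCre and GFP, and those of the other groups the alleles given next. Donors of the VF group carried SclCre, GFP and the V617F mutant JAK2 construct, a constitutively active kinase of myeloproliferative neoplasms that tamoxifen switches on through Cre. Donors of the Il1bKO and Il1r1KO groups carried the VF alleles and in addition IL-1b-/- or IL-1R1-/-, the loss of the cytokine IL-1 beta or of its receptor. Scl drives the Cre in stem and progenitor cells. The deletions were alleles of the donor marrow, and the recipients' genotype is not given in the sources used here, so cells of the host may still make or sense IL-1. WT, VF, Il1bKO and Il1r1KO had 4 libraries each at 2 weeks, and VF, Il1bKO and Il1r1KO had 3 each at 4 weeks. The weeks were separate processing batches, so an effect of time and of batch cannot be told apart. No library of WT at 4 weeks is analysed here. The labels do not say that each library came from its own mouse, so p-values measure the spread between libraries.

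Most receptors of this family share an intracellular signalling domain and work in pairs, a chain that binds the ligand and an accessory chain that joins it. Il1r1 binds IL-1 and pairs with Il1rap. Il1r2 binds IL-1 but has no signalling domain and acts as a decoy. Il1rl1, also called ST2, binds IL-33 and is known from mast cells and type 2 lymphocytes. Il18r1 binds IL-18 and Il18rap is its accessory chain, a pair known from natural killer and T cells. IL-1 drives hematopoietic stem cells towards myeloid output during inflammation.

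The 4 genes and Il1r1 are all on the plus strand of GRCm38 (mm10) and span 478 kb from the start of Il1r2 to the end of Il18rap. Il1r2 (ENSMUSG00000026073) covers chr1:40074079-40125231 and lies 99.8 kb before Il1r1 (chr1:40225080-40317257). Behind Il1r1 come Il1rl1 (ENSMUSG00000026069) at chr1:40429570-40465415, Il18r1 (ENSMUSG00000026070) at chr1:40465552-40500854 and Il18rap (ENSMUSG00000026068) at chr1:40515362-40551705, which lie 112, 148 and 198 kb from it. Il1rl1 ends only 136 bases before Il18r1 starts, on the same strand. Il1r2 overlaps the antisense gene Gm16894 and, on its own strand, Gm37347. Since the libraries were unstranded, reads of Il1r2 and of the antisense transcript cannot be told apart, and how reads of shared bases were assigned is not given in the sources used here.

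The start regions of the 4 genes are shown because the genes share a locus but not one pattern across the libraries. Each runs from 250 bases before to 50 bases after a RefSeq transcript start (GRCm38.p6, plus strand). Those of Il1rl1 (chr1:40429320-40429619), Il18r1 (chr1:40465302-40465601) and Il18rap (chr1:40515112-40515411) sit at the GENCODE gene start, so they hold upstream sequence and the beginning of the first exon. That of Il1r2 (chr1:40085843-40086142) sits at a start inside the longer GENCODE gene. Capitals mark matches to the 6 motifs searched on both strands.
Il1r2: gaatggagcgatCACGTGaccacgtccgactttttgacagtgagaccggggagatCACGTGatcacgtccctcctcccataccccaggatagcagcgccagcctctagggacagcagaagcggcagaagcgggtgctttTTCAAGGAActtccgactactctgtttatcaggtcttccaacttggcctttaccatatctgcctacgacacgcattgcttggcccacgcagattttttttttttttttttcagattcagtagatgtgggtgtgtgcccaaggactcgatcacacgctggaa
Il1rl1: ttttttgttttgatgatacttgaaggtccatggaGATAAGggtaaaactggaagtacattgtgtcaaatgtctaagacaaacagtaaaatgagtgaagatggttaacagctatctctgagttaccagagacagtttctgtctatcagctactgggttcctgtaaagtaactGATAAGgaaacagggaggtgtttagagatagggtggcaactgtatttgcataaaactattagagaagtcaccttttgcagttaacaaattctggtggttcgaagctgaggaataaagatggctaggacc
Il18r1: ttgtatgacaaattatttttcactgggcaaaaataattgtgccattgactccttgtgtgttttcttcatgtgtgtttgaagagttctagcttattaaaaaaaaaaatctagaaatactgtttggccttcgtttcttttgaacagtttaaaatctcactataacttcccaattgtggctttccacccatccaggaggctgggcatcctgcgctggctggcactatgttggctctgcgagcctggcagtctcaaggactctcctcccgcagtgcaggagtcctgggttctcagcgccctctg
Il18rap: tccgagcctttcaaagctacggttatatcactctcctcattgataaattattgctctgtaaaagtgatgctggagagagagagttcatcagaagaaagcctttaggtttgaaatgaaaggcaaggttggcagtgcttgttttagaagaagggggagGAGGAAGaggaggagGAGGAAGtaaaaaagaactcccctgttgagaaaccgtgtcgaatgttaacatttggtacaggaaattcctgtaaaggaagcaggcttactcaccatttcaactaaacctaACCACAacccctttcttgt

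The motifs searched were the E-box CACGTG, the GATA motif GATAAG, the RUNX motif TGTGGT, the PU.1-type ETS motif GAGGAAG, the STAT motif TTCNNNGAA and the AP-1 motif TGANTCA. The 4 windows shared no motif. The Il1r2 window held CACGTG at -238 and -195 from the start, and the STAT match TTCAAGGAA at -111. It also held 16 CpG dinucleotides, against 1 in the Il1rl1 window, 5 in that of Il18r1 and 4 in that of Il18rap. The Il1rl1 window held GATAAG at -216 and -79. The Il18rap window held GAGGAAG at -94 and -79, and ACCACA, the reverse complement of the RUNX motif, at 32 after the start. The Il18r1 window held none of the 6. Of 32851 RefSeq windows of the same 300 bases, 7.15% held CACGTG, 7.44% GATAAG, 16.8% TGTGGT, 13.6% GAGGAAG, 8.3% TTCNNNGAA and 7.81% TGANTCA, so each match is a common one. The matches found here did not overlap one another.

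Libraries held 21990959 to 40178173 counts over the genes, and 11871 to 13491 genes had a read. The library Il1bKO_4w 5 (genotype, week, replicate number of the title) stood apart, with a median correlation of 0.849 to the others, followed by Il1r1KO_4w 5 at 0.914 and VF_4w 6 at 0.924. The remaining libraries had 0.927 to 0.951. The genes of the stem cell list were measured in all 25 libraries, with 11 of 11 tested and a summed level of 1670 to 3640 CPM (counts per 1e6 reads). That list also holds Cd34 and Cd48, although the cells were sorted as CD48-, so not all 11 mark the sorted cells. Cd48 was at 0.606 to 17.1 CPM. Il1b had 0 reads in all 7 Il1bKO libraries and 451 reads over the 7 VF libraries, of which VF_4w 6 held 391. VF_2w 1 and 3 of the 4 WT libraries also had 0, so this check of the label is a weak one. Il1r1 cannot check the deletion in this way, because the table sums a gene's exons: it had reads in all 7 libraries labelled Il1r1KO. The 4 libraries labelled SclCre;GFP held 1 read of CreERT2 in all, against at least 5382 in each VF library, so for Cre they go against their label. In pEGFP they split into 998 and 518 CPM (WT_2w 1 and 2) and 3.03 and 49.3 CPM (WT_2w 3 and 4).

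Per gene length the stem cells held most Il18rap and least Il1rl1. Over the 25 libraries the mean level was 3.39 RPKM (CPM per kilobase of exon) for Il18rap, 2.62 for Il1r1, 0.644 for Il18r1, 0.492 for Il1r2 and 0.0779 for Il1rl1. By mean CPM Il18rap stood at percentile 36.9 of the tested genes, Il18r1 at 14.8, Il1r2 at 6.52 and Il1rl1 at 2.98. Reads of Il18rap were found in 25 libraries (16145 reads), of Il18r1 in 19 (2211), of Il1r2 in 21 (647) and of Il1rl1 in 10 (368). So the accessory chain of the IL-18 receptor was the one receptor gene of the 4 with reads in every library. Amplified reads without molecular identifiers are not independent molecules, so counting intervals given here cover counting error only.

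**Figure D1:**
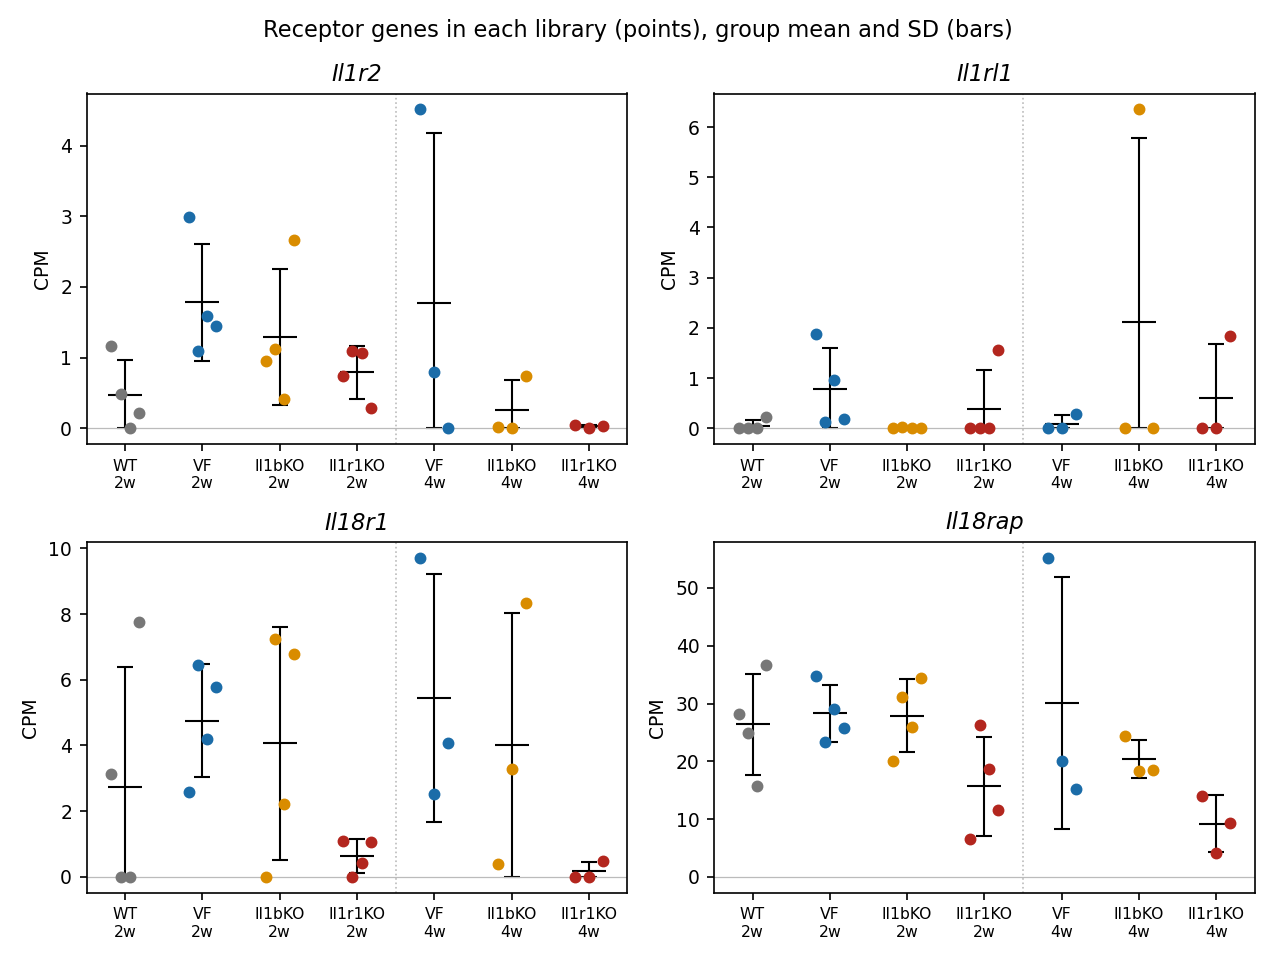
CPM of the 4 receptor genes in each of the 25 libraries (points, colored by genotype) in the 7 groups of genotype and week, with the group mean and SD (black bars, the lower bar ending at 0). Il18r1 lies at or below 1.09 CPM in all 7 libraries labelled Il1r1KO and at or above 2.53 CPM in all 7 VF libraries, and Il1rl1 is at 0 in 15 libraries.

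The IL-18 receptor pair was lowest in the libraries labelled Il1r1KO. Over both weeks Il18r1 averaged 5.05 ± 2.53 CPM (SD, n = 7) in VF, 4.04 ± 3.42 in Il1bKO and 0.438 ± 0.479 in Il1r1KO, a ratio of 11.5 between VF and Il1r1KO. Il18rap averaged 29.1 ± 13.1 CPM in VF, 24.7 ± 6.29 in Il1bKO and 12.9 ± 7.54 in Il1r1KO, a ratio of 2.25. These differences did not pass the threshold of an adjusted p of 0.05 in edgeR's quasi-likelihood test. In these bulk samples, fewer cells of a type and less RNA per cell cannot be told apart.

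Il18r1, the chain that binds IL-18, had 69, 207, 108 and 128 reads in the VF libraries at 2 weeks, which is 2.58, 6.46, 4.2 and 5.79 CPM. At 2 weeks the libraries labelled Il1r1KO had 31, 0, 11 and 33 reads, or 1.09, 0, 0.431 and 1.05 CPM. Every VF library was above every Il1r1KO library, as for 2.09% of all genes at 2 weeks. At 4 weeks VF had 256, 70 and 131 reads (9.71, 2.53 and 4.09 CPM) and Il1r1KO had 0, 0 and 13 reads (0, 0 and 0.497 CPM). The ranges again did not overlap, which held at both weeks, in this direction, for 50 of all 13630 genes (0.367%). Summed over libraries the reads were 512 against 75 at 2 weeks, a ratio of CPM of 7.27 (exact 95% interval 5.7 to 9.39), and 457 against 13 at 4 weeks, a ratio of 31.1 (18 to 58.9). These intervals leave out the spread between libraries. With that spread edgeR gave Il1r1KO against VF a log2 fold change of -2.88 (SE 1.58, unadjusted p = 0.0814) at 2 weeks. At 4 weeks it gave -4.99 (SE 2.04, unadjusted p = 0.0229, adjusted p = 0.309). Neither week passed the threshold after adjustment.

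The fitted log2 fold change of Il18r1 in Il1r1KO against VF over both weeks was -3.93 (SE 1.29), with an adjusted p of 0.257 in edgeR. The gene came 309th of 13630 by p. The exact two-sided permutation of genotype within week, over 1400 arrangements, gave p = 0.00143, the smallest that this design allows. It was adjusted to 0.221 over all genes, and 88 genes (0.646%) had that smallest p. Under the alternatives of the processing the log2 fold change ranged from -6.57 to -3.57 and the adjusted p from 0.0501 to 0.564.

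Il18r1 was spread widely inside the other groups. In Il1bKO the reads were 0, 220, 59 and 204 at 2 weeks and 15, 89 and 269 at 4 weeks, or 0, 7.25, 2.21 and 6.79 CPM and 0.377, 3.28 and 8.34 CPM. In WT they were 86, 0, 0 and 212, or 3.13, 0, 0 and 7.77 CPM. Both groups thus held libraries without reads and libraries as high as VF. No library had 1 to 10 reads of Il18r1: 6 had 0 and 19 had at least 11. The Il1bKO against VF log2 fold change was -0.34 (SE 1.11, adjusted p = 0.952 in edgeR). Against Il1bKO, Il1r1KO stood at -3.6 (SE 1.27, adjusted p = 0.237 in edgeR), and their ranges overlapped at both weeks.

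Il18rap, the accessory chain, had 932, 751, 749 and 570 reads in VF at 2 weeks (34.8, 23.4, 29.1 and 25.8 CPM). The Il1r1KO libraries at 2 weeks had 185, 737, 475 and 362 reads (6.48, 26.2, 18.6 and 11.5 CPM), of which 1 reached into the VF range. At 4 weeks VF had 1455, 554 and 486 reads, from 15.2 to 55.2 CPM, and Il1r1KO had 314, 116 and 246 reads (14.0, 4.19 and 9.4 CPM). The highest Il1r1KO library was just under the lowest VF library, a separation in this direction that 6.65% of all genes showed at 4 weeks. Il1bKO had 20.1, 31.1, 26.0 and 34.5 CPM at 2 weeks and 24.3, 18.4 and 18.5 CPM at 4 weeks. At 4 weeks it too lay wholly above Il1r1KO, as did 4.41% of all genes.

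The log2 fold change of Il18rap in Il1r1KO against VF over both weeks was -1.28 (SE 0.316), with an adjusted p of 0.11 in edgeR, the 62nd lowest p of 13630. The exact permutation within week gave p = 0.00571, adjusted to 0.3 over all genes. DESeq2, which called 1.09% of all genes, called it at an adjusted p of 0.00999 with the same log2 fold change of -1.28. Limma voom with quality weights, which called 2.35% of all genes, called it at -1.44 and 0.0344. Without the 3 libraries that stood apart, edgeR called it at -1.61 and an adjusted p of 0.0234 (2.17% of all genes called), and without VF_4w 6 alone at -1.39 and 0.046 (0.858%). Leaving out VF_4w 5, the library with most Il18rap, gave -0.893 and 0.465. By week the fitted value was -0.85 (SE 0.409, adjusted p = 1 in edgeR) at 2 weeks and -1.71 (SE 0.484, adjusted p = 0.147) at 4 weeks. At 4 weeks DESeq2 called it at an adjusted p of 0.0271 (1.7% of all genes called), and edgeR without the 3 libraries at 0.0318 (2.92%). Limma voom did not (-1.79, adjusted p = 0.106), nor did edgeR without VF_4w 5 (-0.936, adjusted p = 0.705). The change of the effect between weeks was -0.86 (SE 0.624, adjusted p = 0.956 in edgeR). Against Il1bKO the value was -0.99 (SE 0.314, adjusted p = 0.212 in edgeR), and Il1bKO against VF gave -0.29 (SE 0.31, adjusted p = 0.818). The comparisons of Il1r1KO with VF and with Il1bKO share the Il1r1KO libraries.

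**Figure D2:**
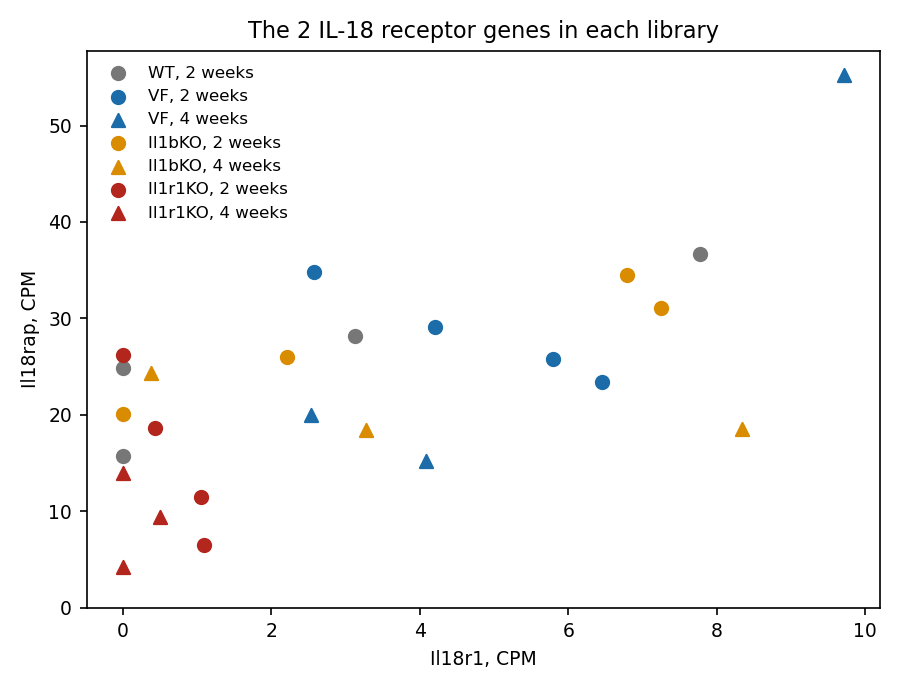
Il18r1 (horizontal axis, CPM) against Il18rap (vertical axis, CPM) in each of the 25 libraries, colored by genotype, with circles for 2 weeks and triangles for 4 weeks. Libraries labelled Il1r1KO lie in the lower left, at 0 to 1.09 CPM of Il18r1, while VF_4w 5 is highest for both genes at 9.71 and 55.2 CPM.

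Across the 25 libraries Il18r1 and Il18rap had a Spearman rho of 0.519, a description over libraries that share groups and batches, and one of 0.639 at 2 weeks (16 libraries) and 0.586 at 4 weeks (9 libraries). Libraries without a read of Il18r1 still held 4.19 to 26.2 CPM of Il18rap. Il1r2 and Il18rap, which lie at opposite ends of the locus, had a rho of 0.72 over the 25 libraries, but 0.529 and 0.576 within the weeks. Il1r2 and Il18r1 had one of 0.456. Il1rl1 had -0.0553 with Il1r2, 0.335 with its neighbour Il18r1 and 0.0182 with Il18rap. VF_4w 5 held the highest level of the 25 libraries for Il1r2, Il18r1 and Il18rap.

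Il1r2, the decoy, was highest in VF and nearly without reads in Il1r1KO at 4 weeks. VF had 80, 35, 41 and 32 reads at 2 weeks (2.99, 1.09, 1.59 and 1.45 CPM) and 119, 22 and 0 reads at 4 weeks (4.51, 0.796 and 0 CPM). Il1r1KO had 21, 31, 27 and 9 reads at 2 weeks (0.736, 1.1, 1.06 and 0.287 CPM) and 1, 0 and 1 reads at 4 weeks. The ranges overlapped at both weeks, since VF_4w 7 had no read either. The 141 reads of VF against 2 of Il1r1KO at 4 weeks gave a ratio of CPM of 62.5, with an exact 95% interval of 17.0 to 521, and 119 of the 141 came from 1 library.

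Over both weeks Il1r2 averaged 1.78 ± 1.51 CPM (SD, n = 7) in VF, 0.845 ± 0.911 in Il1bKO and 0.466 ± 0.489 in Il1r1KO. The fitted log2 fold change of Il1r1KO against VF was -3.49 (SE 1.15, adjusted p = 0.26 in edgeR), and it depends on the prior count where a group has so few reads. Limma voom gave -1.31 (adjusted p = 0.593), and edgeR without VF_4w 5 gave -2.42 (adjusted p = 0.701). The exact permutation gave -1.95 on the log2 CPM scale with prior count 2, at p = 0.0386 and 0.458 after adjustment over all genes. By week the fit gave -1.16 (adjusted p = 1 in edgeR) at 2 weeks and -5.82 (SE 1.94, adjusted p = 0.223) at 4 weeks, which DESeq2 called at -6.04 and 0.0435 (1.7% of all genes called). Limma voom did not call it at 4 weeks (-1.35, adjusted p = 0.799), nor did edgeR without VF_4w 5 (-3.68, adjusted p = 0.725). The change between weeks was -4.66 (SE 2.22, adjusted p = 0.925 in edgeR). Il1bKO had 26, 34, 11 and 80 reads at 2 weeks and 1, 0 and 24 reads at 4 weeks. Its difference from VF was -1.62 (SE 1.01, adjusted p = 0.648 in edgeR).

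Il1rl1, the IL-33 receptor, came from single libraries in most groups. All 4 VF libraries at 2 weeks had reads, 50, 4, 25 and 4 (1.87, 0.125, 0.972 and 0.181 CPM), against 0, 1, 0 and 0 in Il1bKO and 0, 0, 0 and 6 in WT. VF thus lay wholly above Il1bKO at 2 weeks, as did 2.08% of all genes, with 83 reads against 1 and a ratio of CPM of 89.0 (exact 95% interval 15.5 to 3560). At 4 weeks Il1bKO had 0, 172 and 0 reads, VF 0, 0 and 9, and Il1r1KO 0, 0 and 48. Il1r1KO at 2 weeks had 0, 0, 0 and 49 reads.

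None of the Il1rl1 differences passed adjustment. Il1bKO against VF was -5.93 (SE 2.65, adjusted p = 1 in edgeR) at 2 weeks and 4.4 (SE 2.65, adjusted p = 0.442) at 4 weeks. The change of that effect between weeks was 10.3 (SE 3.81, adjusted p = 0.526 in edgeR), and the 172 reads of Il1bKO_4w 6 make up all reads of its group. Il1r1KO against VF over both weeks gave 0.81 (SE 1.54, adjusted p = 0.904 in edgeR). Its sign turned to -1.73 with limma voom, to -0.87 with the replicate number as a block, and to -2.75 without Il1r1KO_4w 7.

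In VF against WT at 2 weeks edgeR called 0 of the 4 genes, with 0.00734% of all genes called. The log2 fold changes were 1.92 (SE 1.34) for Il1r2, 3.74 (SE 2.29) for Il1rl1, 0.8 (SE 1.47) for Il18r1 and 0.1 (SE 0.406) for Il18rap, each with an adjusted p of 1 in edgeR. At an unadjusted p of 0.05 none of the 4 passed in edgeR, against 2.27% of all genes. Il1r2 averaged 1.78 ± 0.834 CPM in VF and 0.467 ± 0.505 in WT (SD, n = 4 each), with overlapping ranges. Without WT_2w 3 and 4, which held little pEGFP, the 4 values were 1.11, 7.49, 1.6 and 0.09. Limma voom in this comparison gave 3.12 for Il1r2 (unadjusted p = 0.0126) and 4.63 for Il18r1 (unadjusted p = 0.0343), each with an adjusted p of 0.696. For Il1rl1 it gave 3.54 (unadjusted p = 0.108) and for Il18rap 0.161 (unadjusted p = 0.575).

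For all 4 genes together, edgeR called 0 of 4 in Il1bKO against VF (0.139% of all genes called), 0 of 4 in Il1r1KO against VF (0.169%) and 0 of 4 in Il1r1KO against Il1bKO (0.176%). At an unadjusted p of 0.05, 3 of 4 were lower in Il1r1KO than in VF, namely Il1r2, Il18r1 and Il18rap, where 5.61% of all genes were. In Il1r1KO against Il1bKO these were 2 of 4, Il18r1 and Il18rap, where 6.66% of all genes were. In Il1bKO against VF it was 0 of 4 in either direction, where 9.38% of all genes were. DESeq2 and limma voom each called 1 of 4 in Il1r1KO against VF, which was Il18rap, beside 1.09% and 2.35% of all genes. Each called 0 of 4 in the other 3 main comparisons. Over all genes DESeq2 and limma voom called 8 and 2 in VF against WT. The numbers were 100 and 14 for Il1bKO against VF, and 166 and 20 for Il1r1KO against Il1bKO. The median log2 fold change of the 4 in Il1r1KO against VF was -2.39, beside 0.0046 over all genes. The 4 genes were chosen with earlier results of these data known, so these shares and medians are a description and no test. Il1rl2, the family receptor nearest to Il1r1, is not among the 4 and had -0.25 (adjusted p = 0.87 in edgeR).

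**Figure D3:**
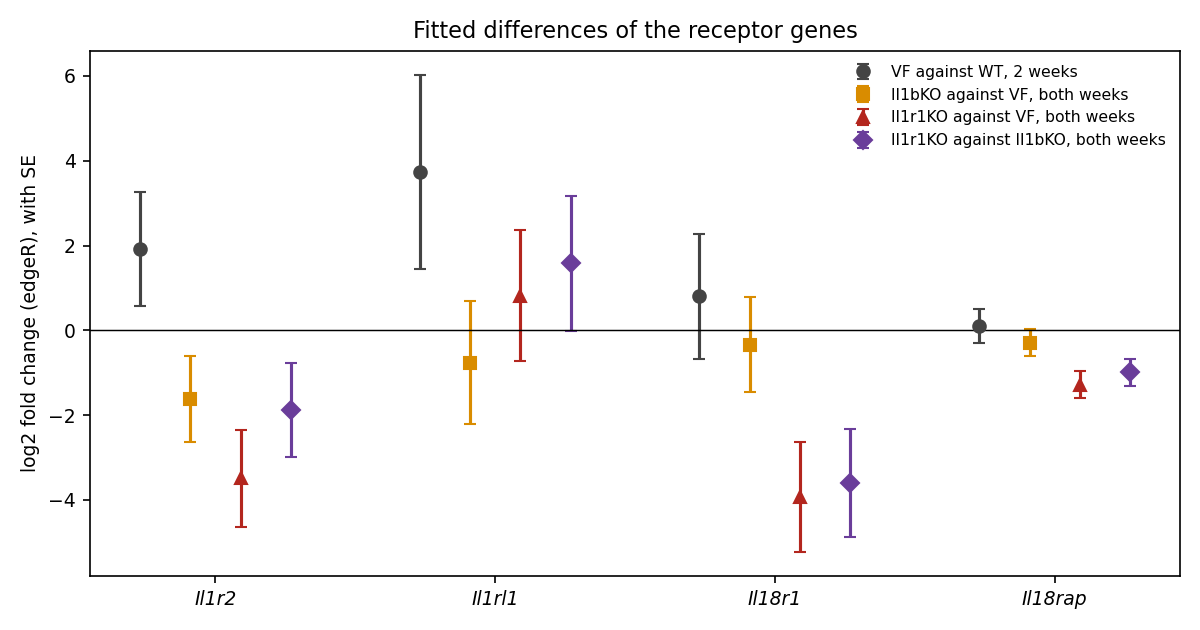
Fitted log2 fold changes of the 4 receptor genes (vertical axis, edgeR, bars are SE) in VF against WT at 2 weeks and in the 3 comparisons over both weeks. Il18rap in Il1r1KO against VF is at -1.28 with an SE of 0.316, and none of the 16 values passes an adjusted p of 0.05.

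The order of the 7 groups by mean CPM placed VF first and Il1r1KO at 4 weeks last for 3 of the 4 genes. Il18r1 ran from 5.44 ± 3.78 CPM (SD, n = 3) in VF at 4 weeks over 4.76 ± 1.73 (n = 4) in VF at 2 weeks, 4.06 ± 3.54 and 4.0 ± 4.03 in Il1bKO and 2.72 ± 3.67 in WT to 0.642 ± 0.523 and 0.166 ± 0.287 in Il1r1KO. Il18rap ran from 30.1 ± 21.8 CPM in VF at 4 weeks to 15.7 ± 8.57 and 9.2 ± 4.92 in Il1r1KO at 2 and 4 weeks. Il1r2 ran from 1.78 ± 0.834 CPM in VF at 2 weeks to 0.0276 ± 0.0241 in Il1r1KO at 4 weeks. Il1rl1 was ordered otherwise, from 2.12 ± 3.66 CPM in Il1bKO at 4 weeks to 0.00824 ± 0.0165 in Il1bKO at 2 weeks. For each of the 4 genes, every group overlapped in range with its neighbour in the order, and no step was larger than the larger SD of the pair.

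Neither Il1r1 itself nor any of the measured genes around it passed the test. Il1r1 averaged 15.8 ± 6.02 CPM in VF, 13.0 ± 6.97 in Il1bKO and 22.2 ± 8.14 in Il1r1KO (SD, n = 7 each), and Il1r1KO against VF gave a log2 fold change of 0.43 (SE 0.459, adjusted p = 0.795 in edgeR). Within 1 Mb of the locus the table held 10 other genes, of which 0 were called by edgeR in the 4 main comparisons. In Il1r1KO against VF 7 of these were lower and 3 higher, from -0.65 (Rfx8) to 0.34 (Tbc1d8), with a lowest unadjusted p of 0.101 and a lowest adjusted p of 0.545. Il1rl2, the IL-36 receptor, is the nearest to Il1r1 of the measured genes at 7.35 kb and had -0.25 (SE 0.373, adjusted p = 0.87 in edgeR). Thus the 3 genes with values below -1 stood on both sides of Il1r1, with Il1r1, Il1rl2 and Il1rl1 between them.

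**Figure D4:**
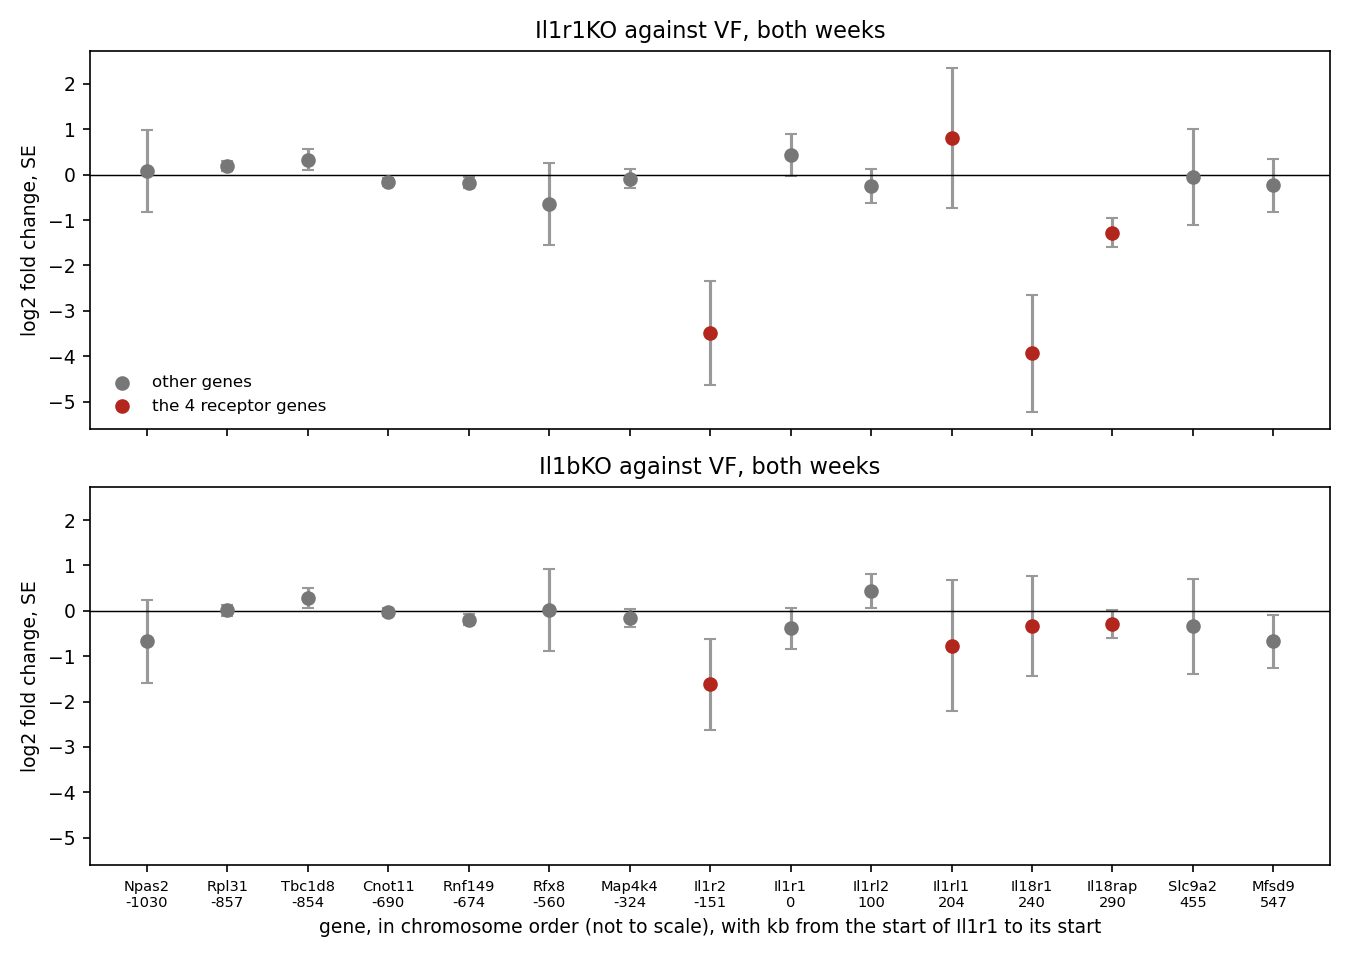
Log2 fold changes with SE (vertical axis) of the 15 measured genes within 1 Mb of the locus, in chromosome order with the distance of each start from that of Il1r1 in kb, for Il1r1KO against VF (top) and Il1bKO against VF (bottom). Il1r2, Il18r1 and Il18rap lie at -3.49, -3.93 and -1.28 in the upper panel, while the 10 other genes lie between -0.65 and 0.34.

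Among the ligands and binding proteins of the family 3 of 11 listed genes were tested, and edgeR called 0 of them in the 4 main comparisons. Il18, the ligand of the Il18r1 and Il18rap pair, was at 11.7 to 44.6 CPM in the libraries, and Il18bp, which binds and neutralises it, at 25.7 to 91.6 CPM. In Il1r1KO against VF Il18 had a log2 fold change of -0.31 (SE 0.224, adjusted p = 0.654 in edgeR) and Il18bp -0.26 (SE 0.188, adjusted p = 0.654). Il1b, the gene deleted in Il1bKO, had a log2 fold change of -8.22 (SE 1.75, adjusted p = 0.0998 in edgeR) in Il1bKO against VF, which did not pass the threshold. Il1bKO had 0 reads of it, so the size of this value depends on the prior count.

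Of 5 further receptors 4 were tested, and 0 were called. Il1rap, the accessory chain of both Il1r1 and Il1rl1, was at a median of 32.5 CPM and had -0.25 (adjusted p = 0.681 in edgeR) in Il1r1KO against VF. Against Il1bKO it had -0.43 (SE 0.193, adjusted p = 0.328 in edgeR). Sigirr, a negative regulator of the family, was at 87.9 to 132 CPM with -0.05 (adjusted p = 0.884). The accessory chains thus had values of -1.28 for Il18rap and -0.25 for Il1rap, and the difference between them was not tested.

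The relay behind the receptors, with Myd88 and the Irak kinases, gave 6 higher and 7 lower of 13 tested genes in Il1r1KO against VF, and 0 called. Its lowest p was that of Peli2, a ubiquitin ligase that acts on Irak1, with -0.78 (SE 0.25, adjusted p = 0.24 in edgeR). Peli2 was at 4.55 to 32.4 CPM and, like Il1r2, Il18r1 and Il18rap, highest in VF_4w 5. Both tested genes of cytokine processing were lower, Pycard at -0.21 (SE 0.0904, adjusted p = 0.372 in edgeR) and Casp1, the protease that matures IL-1 beta and IL-18, at -0.24 (SE 0.118, adjusted p = 0.438). At an unadjusted p of 0.05, 2 of the 22 tested pathway genes passed in this comparison, against 11.4% of all genes.

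Markers of cells that carry these receptors in other settings were measured beside them. Of 14 T, NK and innate lymphoid markers 3 were tested, Nkg7, Klrb1c and Gata3, and Cd3e, Ncr1 and Il2rb are not analysed here. Over both weeks all 3 were higher in Il1r1KO than in VF, with 0 called and a smallest adjusted p of 0.68 in edgeR. At 2 weeks 2 were higher and 1 lower, and at 4 weeks 1 was higher and 2 lower. Their summed level was 78.5 to 111 CPM in VF and 106 to 133 in Il1r1KO at 2 weeks, and 72.4 to 138 against 120 to 157 at 4 weeks. Gata3 had the highest median of the 3 over the 25 libraries, at 55.5 CPM, beside 27.3 for Nkg7 and 10.2 for Klrb1c. Whether lymphoid cells gave any of this sum was not tested.

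Mast cell and basophil markers, 5 of 10 tested, had 4 lower and 1 higher in Il1r1KO against VF, a median of -1.05 and 0 called (smallest adjusted p 0.328 in edgeR). Their sum was 4.48 to 10.3 CPM in VF against 1.88 to 7.5 in Il1r1KO at 2 weeks, and 11 to 66.1 against 5.82 to 12.2 at 4 weeks. Ms4a2 was at 0 in 15 libraries and Prss34 in 19. The sum was highest in VF_4w 7 (66.1 CPM, of which Prss34 gave 44.8), which had 15.2 CPM of Il18rap, no read of Il1r2 and 9 reads of Il1rl1. In Il1bKO_4w 6, the library with 172 reads of Il1rl1, the sum was 13.0 CPM. In its replicates Il1bKO_4w 7 and Il1bKO_4w 5, which had no read of Il1rl1, it was 12.2 and 53.7 CPM. The neutrophil and monocyte markers had 5 higher and 4 lower of 9 tested, with 0 called. Megakaryocyte markers, 4 of 4 tested, had 3 higher and 1 lower over both weeks, with 0 called and a smallest adjusted p of 0.724 in edgeR. Their sum was 170 to 307 CPM (median 223) in VF against 230 to 535 (median 337) in Il1r1KO at 2 weeks, and 344 to 1840 (median 392) against 492 to 727 (median 624) at 4 weeks. At 4 weeks 2 of the 4 were higher and 2 lower, with a median log2 fold change of -0.253. Pf4 and Itga2b peaked in VF_4w 6, at 1070 and 690 CPM. The erythroid markers had 2 higher and 2 lower of 4, with 0 called. Of the macrophage list, the B lineage list and the endothelial and stromal list 2 of 5 genes each were tested, with 0 called. In the last of these the tested genes were Pecam1 and Kdr, while Cdh5, Cxcl12 and Col1a1 are not analysed here. The part of any of these cells in the receptor levels was not tested.

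The genes of the stem cell list, Cd34 and Cd48 among them, had 4 higher and 7 lower of 11 in Il1r1KO against VF. Of these 0 were called, and the median was -0.14. Their sum was 2400 to 2550 CPM in Il1r1KO against 2520 to 3190 in VF at 2 weeks, and 1670 to 2290 against 2220 to 2390 at 4 weeks. Among the transgene sequences, pEGFP was at 462 to 541 CPM in VF and 868 to 1470 in Il1r1KO, with no overlap. Both segments of the mutant JAK2 construct were also higher in Il1r1KO, without overlap. Exons 3 to 12 were at 99.7 to 130 CPM in VF and 140 to 218 in Il1r1KO, and exons 13 to 25 at 39.1 to 60.8 and 81.6 to 115. CreERT2 was at 195 to 388 CPM in VF and 321 to 595 in Il1r1KO, with overlap. The part of these markers and sequences in the receptor levels was not tested.

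The genes whose levels followed each receptor gene most closely were sought among 11739 genes with a mean log2 CPM of at least 1, by Spearman rho over the 25 libraries. For Il18rap these were Cdk17 (rho 0.834), Klhl24 (0.833) and S1pr4 (0.783), and over the 16 libraries of 2 weeks they had 0.747, 0.812 and 0.644. For Il18r1 they were Myb (0.761), a transcription factor of blood progenitors, Zfp141 (0.747) and Itga4 (0.726), with 0.785, 0.782 and 0.655 at 2 weeks. For Il1r2 they were Zfp874b (0.777), Birc3 (0.746) and Acer2 (0.739), of which Acer2 had 0.22 over the 9 libraries of 4 weeks. For Il1rl1 they were Bcl2l11 (0.693), Slc19a1 (0.683) and Zfp507 (0.643), over a gene with reads in only 10 libraries. The libraries share groups, batches and depth, and the genes were picked as the highest of many, so these values are a description. None of the 12 lies on chromosome 1.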

How the data were processed

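Gene-level read counts of 25 libraries, as deposited by the authors, were used. Per the labels' protocols, polyA RNA was made into unstranded SMART-Seq v4 libraries, without molecular identifiers. The aligner was STAR 2.7.10a and the counter featureCounts, on mm10, per the submitters' processing notes. Symbols, positions and exon lengths came from GENCODE vM21, promoter windows from RefSeq.

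The test was that of edgeR 4.0.16 under R 4.3.3 (TMM, filterByExpr, robust quasi-likelihood, 13630 genes) with 1 fit of the 7 groups of genotype and week, with Benjamini-Hochberg adjustment over all genes at 0.05. Values over both weeks are means of the within-week differences. CPM used TMM-scaled totals. The 4 construct sequences were left out of library sizes. The exact permutations used log2 CPM with prior count 2. The edgeR and permutation scripts were tested on simulated data. Alternatives were DESeq2 1.42.0, limma 3.58.1 voom, RLE and upper-quartile factors, other filters, only the groups compared, a replicate block and each library left out, and, chosen after seeing the data, 2 sets of libraries left out.

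The 4 genes and all lists were chosen with earlier results of these data known. Named were the 4 genes and Il1r1, the 3 genes most like each, called neighbours within 1 Mb, and up to 6 pathway genes of lowest p in each main comparison; other named genes were chosen after their values were seen.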

Additional observations from a re-analysis of the deposited data

Results flagged for a closer look

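Il1rl1 was flagged in 3 of the groups of 4 libraries, because 1 library lay far from the others by Dixon's criterion for groups of 4, which divides a gap by the range. In WT at 2 weeks the library WT_2w 4 had 0.22 CPM, in Il1bKO at 2 weeks Il1bKO_2w 2 had 0.033 CPM, and in Il1r1KO at 2 weeks Il1r1KO_2w 4 had 1.56 CPM. The other 3 libraries of each group had no read, so the gap over range was 1 in each. In Il1bKO_2w 2 the value rests on 1 read. With 3 libraries at 0, any read in the fourth gives this gap, so the flag follows from the zeros. The screen covered 5 genes in 4 groups, and the chance rate of about 1 in 20 holds for continuous values, not for these sets.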

How the results depend on the processing

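The 16 differences of the 4 receptor genes in the 4 main comparisons had 335 values under the alternatives, of which 316 kept direction and side of the threshold, 15 turned in sign and 4 passed the threshold anew. All 4 concern Il18rap in Il1r1KO against VF: DESeq2 (-1.28), limma voom (-1.44), without the 3 libraries that stood apart (-1.61) and without VF_4w 6. Leaving out single libraries gave -1.49 to -0.893 there. Il1rl1 turned with limma voom to -1.73 against VF and -0.341 against Il1bKO in Il1r1KO. With the replicate block it turned to 0.0727 in Il1bKO against VF, -0.872 in Il1r1KO against VF and -0.945 in Il1r1KO against Il1bKO. The cause was not tested.

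Leaving out single libraries turned the sign of values near 0 or resting on single libraries. Il18rap in VF against WT ranged from -0.082 to 0.302, and in Il1bKO against VF from -0.45 to 0.0937. Il18r1 in Il1bKO against VF ranged from -0.901 to 0.0207, and Il1r2 in Il1r1KO against Il1bKO from -2.16 to 0.0318. Il1rl1 ranged from -5.22 to 1.49 in Il1bKO against VF, -2.75 to 3.06 in Il1r1KO against VF and -1.99 to 6.03 in Il1r1KO against Il1bKO.

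At 4 weeks Il1r2 and Il18rap passed with DESeq2 (-6.04 and -1.71), and Il18rap without the 3 libraries (-2.37), but neither with limma voom (-1.35 and -1.79) nor without VF_4w 5 (-3.68 and -0.936). Genes called in Il1r1KO against VF numbered 23, and 148 with DESeq2, 320 with limma voom, 39 with only the groups compared and 296 without the 3 libraries, with 15 (without Il1r1KO_4w 6) to 117 (without VF_4w 6) when single libraries were left out. In Il1bKO against VF 19 became 100 with DESeq2, and 36 and 63 without Il1bKO_4w 7 and 6. In Il1r1KO against Il1bKO 24 became 166 with DESeq2, and 43 and 124 without Il1r1KO_4w 7 and Il1bKO_4w 6, and in VF against WT 1 became 8, 2 with limma voom and 3 with only the groups compared.

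No sign was found that the replicate numbers pair the samples: of 33 same-numbered pairs 0 correlated above 0.1 (-0.148 to 0.0799), and 3 libraries correlated best with their own number. With so few libraries per group this check cannot exclude a pairing. The block gave -1.29 for Il18rap in Il1r1KO against VF (adjusted p = 0.109 in edgeR) and 1, 15, 20 and 19 genes called in the 4 main comparisons, in the order above from VF against WT on. No block could be fitted between weeks, which share no number, and Il1r2 and Il1rl1 have no value where a CPM of 5 in 3 libraries was required. Il1rl1 and Il1r2 had 368 and 647 reads in all, and 172 of the former came from Il1bKO_4w 6.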
